A study of Mus musculus and Homo sapiens with 10 samples.

Results

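Kainate receptors are glutamate-gated ion channels of neurons, and Grik1 to Grik5 encode their 5 subunits. The location of these 5 mouse genes relative to the nuclear lamina was described in N2A cells, a mouse neuroblastoma line, from lamina-associated domains (LADs, long stretches of chromatin that touch the lamina at the rim of the nucleus). The genes were chosen by name, with earlier results of these data known. All 5 were found by symbol among 21523 protein-coding genes of chromosomes 1 to 19 and X in RefSeq's gene table for GRCm38.p6. That table has the coordinates of mm10. Each gene was placed by the share of its annotated body inside LADs, from first to last base, and by whether each of its ends lay inside.

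The study fused proteins to Dam, a bacterial enzyme that methylates the adenine of GATC, and read the marked sites either on Nanopore instruments (Nanopore-DamID) or on Illumina instruments (Illumina-DamID). Both LAD lists come from N2A cells. Those cells gave 7 samples: LaminB1-Dam by Nanopore (1 sample) and by Illumina (2), Dam alone by Nanopore (1) and by Illumina (1), 10% LaminB1-Dam by Nanopore (1) and Wildtype (1). The labels give no other genotype or treatment than induction of the Dam proteins with doxycycline at 2 µg/mL. For Wildtype they give no doxycycline. The 3 HEK293T samples, with CTCF-DamN126A or DamN126A alone, were not used here. The sources used here do not give the samples behind each list, and no label says what 10% refers to.

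The lists hold positions only. They carry no value per sample, so depth is unknown, no spread between replicates exists and no p-value is given. On chromosomes 1 to 19 and X the Nanopore list held 1174 LADs over 1480.1 Mb and the Illumina list 1149 LADs over 1353.06 Mb, so Nanopore shares start from a wider coverage. Every border there lay on a grid of 20 kb, the finest step at which values below can differ.

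Kainate receptors assemble from subunits of a low-affinity kind (GluK1 to GluK3, from Grik1 to Grik3) and a high-affinity kind (GluK4 and GluK5, from Grik4 and Grik5), the latter reaching the cell surface in combination with the former. They act at synapses on both sides of the cleft. LADs are in general poor in genes and low in transcription, and the lists say where a gene lay, not whether it was transcribed.

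The 5 genes fell into 3 kinds of location. Grik2, with 696 kb the longest, lay wholly inside LADs of both methods, as did 22.8% of all protein-coding genes. Grik1, with 395 kb, was cut by a LAD border in both lists, as were 1.89% of all protein-coding genes, and the border lay 200 kb apart between them. Grik3, Grik4 and Grik5, with 224, 427 and 65.8 kb, had no base in a LAD of either list, which held for 68.8% of all protein-coding genes. By midpoint, 2 of 5 genes were in Nanopore LADs, against 28.9% of all protein-coding genes, and 1 of 5 in Illumina LADs, against 25.4%. With 5 genes these counts are near the background, and nothing about the family is read from them. The background changes with length. Of the 557 protein-coding genes of 300 kb or more, 64.5% had their midpoint in Nanopore LADs and 59.4% in Illumina LADs. By whole body, 39.9% of these long genes lay inside LADs of both lists, 26.9% were clear of both and 20.8% were cut by a border in both. Of the 3 members above 300 kb, Grik2 was in by both lists, Grik1 by Nanopore only and Grik4 by neither.

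**Figure D1:**
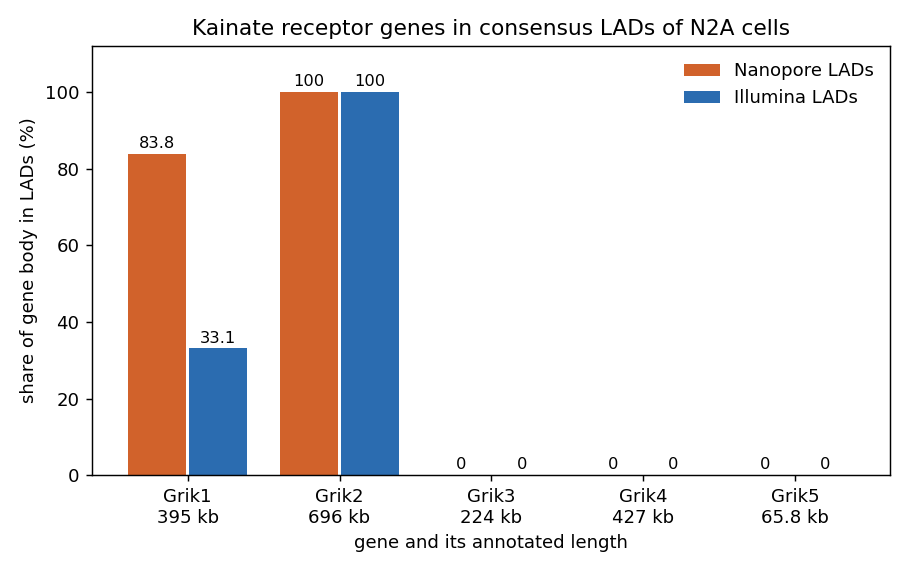
Share of each kainate receptor gene body inside consensus LADs (vertical axis, percent), for Nanopore LADs (orange) and Illumina LADs (blue), with gene lengths under the names. Each bar is 1 list with no replicates. Grik2 stands at 100% in both lists, Grik1 at 83.8% and 33.1%, and the other 3 genes at 0%.

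Grik2 encodes GluK2, a kainate receptor subunit found widely in the brain. The gene spans chromosome 10 from 49093680 to 49790161. Its whole body, both ends and the annotated start of transcription (49788754, on the minus strand) were inside a LAD in each list. The Nanopore LAD ran from 46060001 to 50580000, 4.52 Mb. The Illumina LAD ran from 46820001 to 50580000, 3.76 Mb, with a gap of 140 kb (46680001 to 46820000) before the next LAD on the low side. The high borders were thus identical, 790 kb beyond the gene, and both low borders were more than 2 Mb away, at 3034 kb by Nanopore and 2274 kb by Illumina. Of the 1174 Nanopore LADs 55 were wider, and of the 1149 Illumina LADs 64.

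Grik2 stood alone in that LAD. It was the only protein-coding gene with its midpoint there in either list, which makes 0.221 genes per Mb by Nanopore and 0.266 by Illumina, against 4.2 and 4.04 over all LADs of each list. The nearest protein-coding gene on the low side was Hace1, a ubiquitin ligase gene, 3381 kb away and outside LADs of both lists. On the high side it was Ascc3, a helicase gene, 803 kb away, which was cut by the next gap between LADs and lay inside to 50.7% by Nanopore and 35.3% by Illumina. In the 1 Mb on each side of Grik2, LADs filled 93% by Nanopore and 91% by Illumina. Only 1 protein-coding gene had its midpoint in these flanks, and 99.4% of all protein-coding genes had more. Whole inclusion is common at this length: of 126 protein-coding genes within 25% of the length of Grik2, 50 (39.7%) were wholly inside LADs of both lists.

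RefSeq promoter windows (GRCm38.p6) were at hand for Grik2, Grik3, Grik4 and Grik5, not for Grik1. They are shown because, of these 4 starts, only that of Grik2 lay inside LADs. The 250 bases before each start are printed 5′ to 3′, with every CG in capitals, the dinucleotide that carries most DNA methylation in mammals, and every GATC, the site that Dam marks. Both motifs read the same on either strand.
Grik2, chr10:49788755-49789004, minus strand: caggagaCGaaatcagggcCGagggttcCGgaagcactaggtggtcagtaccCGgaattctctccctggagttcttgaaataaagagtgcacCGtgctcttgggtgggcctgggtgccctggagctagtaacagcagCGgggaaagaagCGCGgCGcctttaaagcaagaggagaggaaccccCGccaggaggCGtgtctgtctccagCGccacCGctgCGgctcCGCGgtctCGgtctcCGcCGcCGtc
Grik3, chr4:125490446-125490695, plus strand: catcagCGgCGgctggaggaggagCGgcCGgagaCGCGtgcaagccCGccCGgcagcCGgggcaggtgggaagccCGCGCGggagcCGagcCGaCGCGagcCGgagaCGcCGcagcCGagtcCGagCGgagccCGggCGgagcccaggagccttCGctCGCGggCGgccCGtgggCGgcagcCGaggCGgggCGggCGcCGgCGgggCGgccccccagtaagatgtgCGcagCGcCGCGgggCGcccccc
Grik4, chr9:42944372-42944621, minus strand: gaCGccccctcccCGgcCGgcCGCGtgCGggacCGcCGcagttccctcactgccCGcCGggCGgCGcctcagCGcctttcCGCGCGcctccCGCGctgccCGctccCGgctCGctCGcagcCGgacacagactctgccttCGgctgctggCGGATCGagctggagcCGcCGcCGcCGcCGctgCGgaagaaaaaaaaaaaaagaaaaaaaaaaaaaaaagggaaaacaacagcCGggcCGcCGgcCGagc
Grik5, chr7:25072370-25072619, minus strand: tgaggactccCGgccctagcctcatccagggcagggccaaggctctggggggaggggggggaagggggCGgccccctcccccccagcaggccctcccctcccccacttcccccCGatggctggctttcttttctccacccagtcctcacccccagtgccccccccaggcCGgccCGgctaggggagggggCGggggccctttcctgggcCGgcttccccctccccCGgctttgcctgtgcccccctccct

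Grik2 had 20 CG in its window, fewer than Grik3 with 42 and Grik4 with 36, and more than Grik5 with 8. Among promoter windows whose start lay in LADs of both lists (8435 windows, median 2 CG), 5.41% had more CG than Grik2. Among all 32619 windows, with a median of 6, 16.5% did. These windows outnumber the 21523 protein-coding genes, so the shares are not ranks among those genes. Windows that start in LADs of neither list had a median of 9 CG in 22470 windows. The GC content was 62.8% for Grik2, 82% for Grik3, 69.6% for Grik4 and 75.2% for Grik5, against a median of 52.4% over all windows. At least 1 CG occurred in 92.2% of all windows. A GATC occurred once in these 4 windows, in Grik4, starting 98 bases before the start, where its last base is also the first of a CG. Of all windows, 41.6% held a GATC. No match in a window says nothing of Dam marks over a LAD, which rest on all GATC sites of a region. Each gene's annotated body reaches beyond the start used, by 0.437 kb in Grik3 to 3.33 kb in Grik5. All 4 printed windows therefore lie inside the annotated gene body. Starts of other transcripts were not looked up.

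Grik1 encodes GluK1 and spans chromosome 16 from 87895901 to 88290863. By Nanopore, 331 kb of it (83.8%) lay in a LAD, and by Illumina 131 kb (33.1%). The difference was 200 kb, or 50.6 percentage points. Both lists put the high end inside and the low end outside. The table of starts held no entry for Grik1, so its ends are given by coordinate and not as start and end of transcription.

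The Nanopore border lay at 87960001, 64.1 kb or 16.2% of the length into the gene, and the Illumina border at 88160001, 264 kb or 66.9% into it. The midpoint fell between them and was in the Nanopore LAD only. At the other end both LADs stopped at the same base, 89760000, giving widths of 1.8 Mb by Nanopore and 1.6 Mb by Illumina. Distances this large were a minority among borders: 17.4% of 2298 Illumina borders had no Nanopore border within less than 200 kb, and 57.5% had one within 20 kb. Of all protein-coding genes, 4.18% had their midpoint in Nanopore LADs only. A Nanopore share as far above the Illumina share as that of Grik1, or farther, was found in 4% of all protein-coding genes and 4.13% of those of 300 kb or more. In kb the excess was reached by 48 of 21523 genes (0.223%), and by 6.28% of those of 300 kb or more. Short genes cannot reach 200 kb, so the latter share is the nearer background.

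The low end of Grik1 sat in a stretch on which the lists differed repeatedly. Illumina LADs left 820 kb free, from 87340001 to 88160000. Nanopore LADs covered 460 kb (56.1%) of it. Besides the extension into Grik1 and 20 kb at the far edge, that was a LAD of 160 kb (87520001 to 87680000) and 1 of 80 kb (87760001 to 87840000), the latter 55.9 kb from the gene. Of the 8 protein-coding genes that touch the stretch, only Grik1 and Map3k7cl had their midpoint in Nanopore LADs. Map3k7cl was wholly inside by Nanopore and had no base in an Illumina LAD. Bach1, a transcription factor gene of heme metabolism and the nearest neighbour on the low side at 163 kb, lay between Nanopore LADs with no base in either list. Cct8, Usp16, Rwdd2b and Ltn1 had no base in either list, and N6amt1 lay in the Nanopore LAD to 40.2%.

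**Figure D2:**
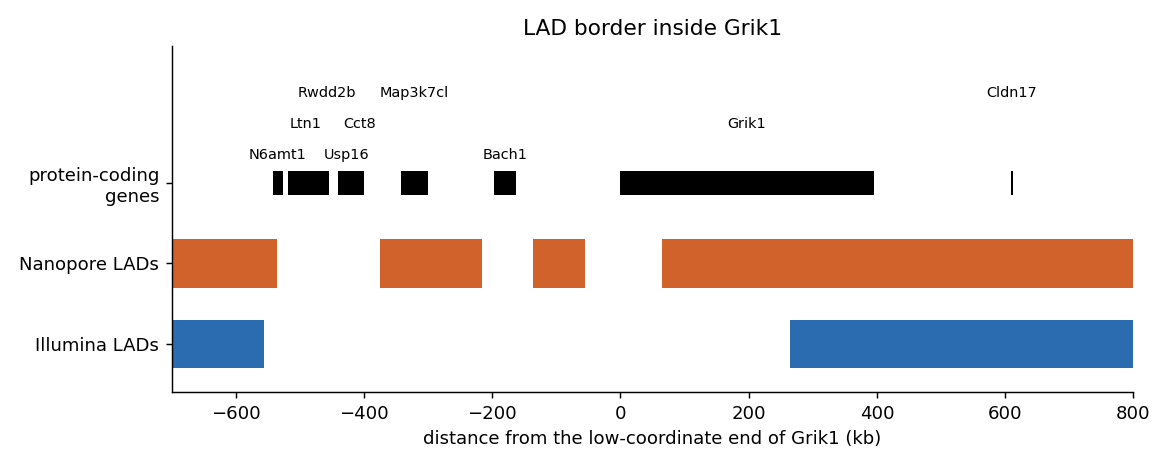
LADs and protein-coding genes around Grik1, by distance from its low-coordinate end (horizontal axis, kb), with genes in black, Nanopore LADs in orange and Illumina LADs in blue. The Nanopore LAD enters the gene at 64.1 kb and the Illumina LAD at 264 kb. At the far left both lists show the end of a wide LAD. Between it and the gene, only the Nanopore list has 2 further LADs, of 160 and 80 kb.

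Beyond the high end of Grik1 the same LAD was dense in genes. The nearest gene there was Cldn17, a claudin gene of tight junctions, 215 kb away and wholly inside LADs of both lists. The Nanopore LAD held the midpoints of 61 protein-coding genes, 33.9 per Mb, and the Illumina LAD 60, 37.5 per Mb. Of these, 24 in each list had symbols beginning with Krtap, the keratin-associated proteins of hair, a family counted after its members had been seen in the region. Another 2 in each list were claudin genes. Apart from Grik1, in the Nanopore LAD only, all the rest had symbols that begin with Gm or end in Rik. These symbols too were sorted after they had been seen, so the density rests largely on 1 family and on such entries. By Nanopore the LADs of Grik1 and Grik2 held 33.9 and 0.221 genes per Mb, against 4.2 over all LADs. In the flanks of 1 Mb, Grik1 had LAD coverage of 85.2% by Nanopore and 72.2% by Illumina. The low flank held the difference, at 70.4% and 44.4%, while the high flank was at 100% in both.

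Grik3 encodes GluK3 and spans chromosome 4 from 125490259 to 125714173. It had no base in a LAD, and its annotated start (125490696, plus strand) and both ends were outside in each list. The nearest LAD ended at 124580000 in both lists, 910 kb from the gene. On the high side the next LAD began 1.75 Mb away by Nanopore and 1.83 Mb by Illumina. The inter-LAD region around it measured 2.88 Mb by Nanopore and 2.96 Mb by Illumina, with 52 protein-coding genes by midpoint in each. Its neighbours Zc3h12a, an RNase gene of immune control, and Csf3r, a cytokine receptor gene, were 362 and 309 kb away and had no base in a LAD. LAD coverage of its flanks was 4.49% in both lists.

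Grik4 encodes GluK4 and spans chromosome 9 from 42518182 to 42945000. It was the member farthest from any LAD, at 1938 kb by Nanopore and 2338 kb by Illumina. Of the protein-coding genes clear of LADs, 10.2% of 14972 lay farther away by Nanopore and 9.91% of 15790 by Illumina, where the medians over such genes were 0.484 and 0.577 Mb. Its inter-LAD region measured 6.1 Mb by Nanopore (40580001 to 46680000) and 11 Mb by Illumina (40180001 to 51180000). Only 16 of 1154 inter-LAD regions were wider by Nanopore and 4 of 1129 by Illumina. The Nanopore list set its limits by 2 narrow LADs, of 0.16 and 0.4 Mb, that the Illumina region runs across. In the flanks of 1 Mb no base was in a LAD.

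Most genes about as long as Grik4 lay in LADs by midpoint. Of 307 protein-coding genes within 25% of its length, 60.3% had their midpoint in Nanopore LADs and 55.4% in Illumina LADs, and 32.6% were, like Grik4, clear of both. Its start (42944371, minus strand) was outside LADs. Neighbours were close, with Tbcel 45.9 kb away on the low side and Arhgef12 18.8 kb away on the high side. Neither had a base in a LAD.

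Grik5 encodes GluK5, a high-affinity subunit often found together with GluK2. It spans chromosome 7 from 25009849 to 25075694 and is the shortest member. The nearest LAD lay 750 kb away in both lists, a LAD of 0.1 Mb from 24160001 to 24260000 with the same borders in each. On the high side the distances were 844 kb by Nanopore and 804 kb by Illumina, the only side of a member outside LADs on which the Illumina LAD came nearer. Its inter-LAD region of 1.66 Mb by Nanopore and 1.62 Mb by Illumina held 62 and 61 protein-coding genes, 37.3 and 37.7 per Mb, against 14 and 13.1 over all inter-LAD regions. Zfp574 overlapped it by 21 bases and Pou2f2 lay 11.7 kb away on the high side, and neither had a base in a LAD. At its length, exclusion is common: 74.5% of 1942 genes within 25% were clear of both lists.

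**Figure D3:**
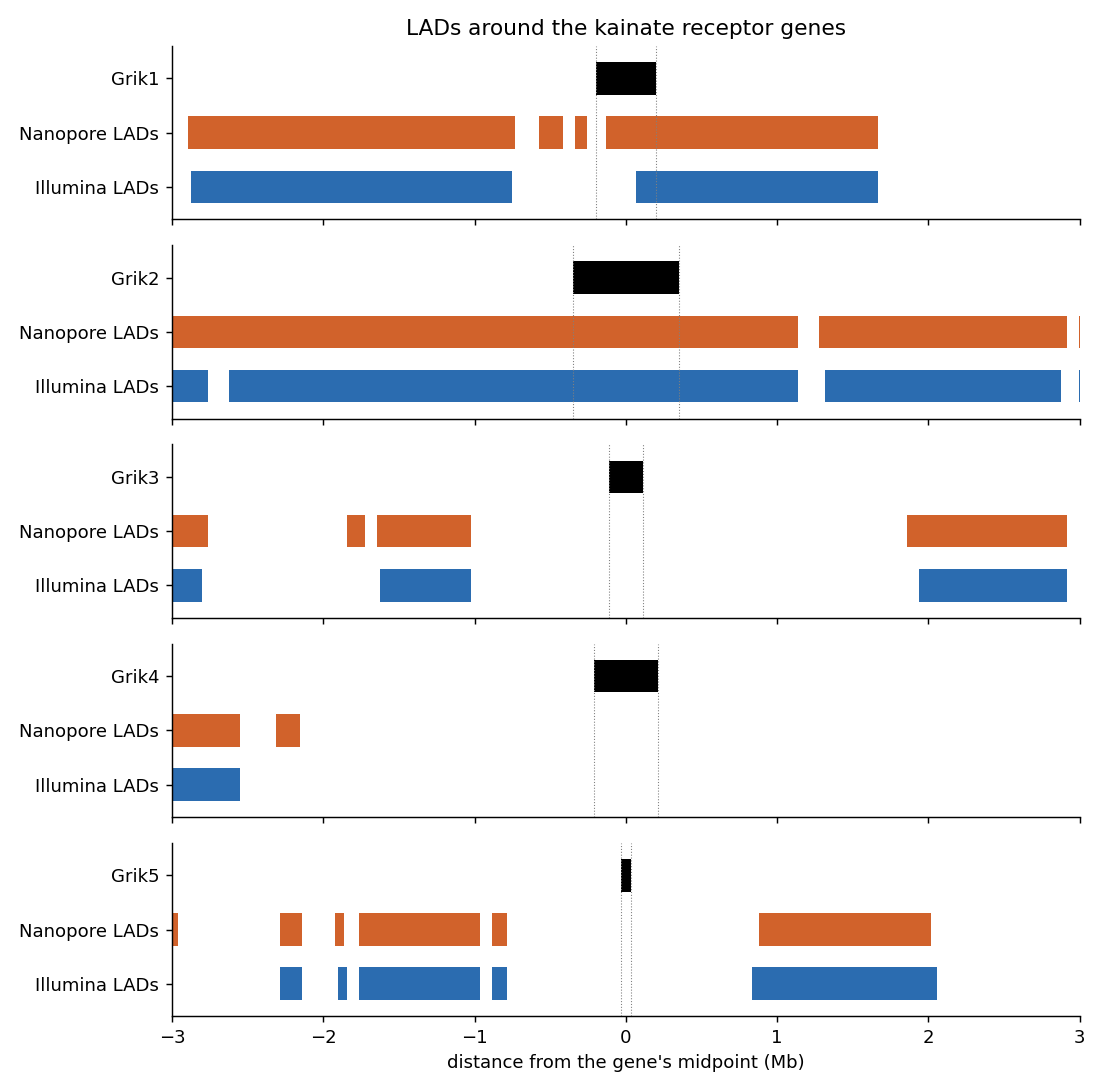
LADs within 3 Mb of the midpoint of each kainate receptor gene (horizontal axis, distance in Mb), with the gene in black, dotted lines at its ends, Nanopore LADs in orange and Illumina LADs in blue. LADs of both lists run across Grik2, begin inside Grik1 and leave Grik3, Grik4 and Grik5 free, with the widest free space at Grik4.

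**Figure D4:**
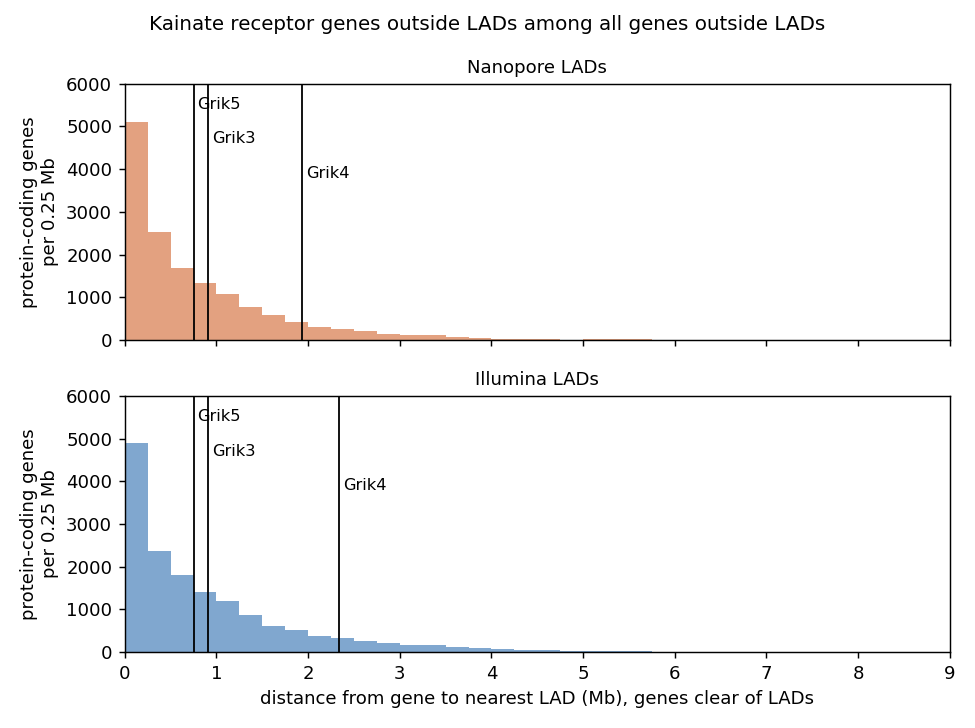
Distance from each protein-coding gene clear of LADs to the nearest LAD (horizontal axis, Mb; vertical axis, number of genes per 0.25 Mb), by Nanopore (top) and Illumina (bottom), with lines at 3 members. Grik5 at 750 kb and Grik3 at 910 kb lie past the medians of 0.484 and 0.577 Mb, and Grik4 lies farthest out at 1938 and 2338 kb.

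The order of the members by distance was the same in both lists: Grik2 inside, Grik1 cut, then Grik5, Grik3 and Grik4. The steps from Grik5 to Grik3 and from Grik3 to Grik4 were each wider than the 20 kb grid. Across the family the order did not follow length, since Grik4, the second longest, was the farthest out. It did not follow subunit kind either, as the low-affinity subunits Grik1, Grik2 and Grik3 took all 3 kinds of location, while the high-affinity subunits Grik4 and Grik5 were both outside.

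Other glutamate receptor genes were placed in the same way. These gene lists, and those of the paragraphs below, were also chosen with earlier results of these data known. Of 6 AMPA and delta receptor genes, 5 had their midpoint in LADs of both lists, and Gria3 was outside. The share was 24.7% over all protein-coding genes and 58.9% over those of 300 kb or more. Of 7 NMDA receptor genes, 3 had their midpoint in both (Grin2a, Grin2b and Grin3a), and of 8 metabotropic receptor genes 5 did (Grm3, Grm5, Grm6, Grm7 and Grm8). None of these 21 genes had its midpoint in the LADs of a single list, a rare class in which Nanopore LADs alone held 4.18% of all protein-coding genes, so the count does not set Grik1 apart. Grin3a, cut in both lists, came nearest, at 79.2% by Nanopore and 54.2% by Illumina. Grid1, at 76.4% and 97.4%, and Grm3, at 85.5% and 100%, differed the other way, with the lower share by Nanopore. The median share was 0% for the kainate and the NMDA genes in both lists, as for all protein-coding genes, 100% and 98.7% for the AMPA and delta genes, and 92.8% and 100% for the metabotropic genes. These families differ in length, with medians of 395 kb for kainate, 349 kb for AMPA and delta, 39.3 kb for NMDA and 318 kb for metabotropic genes. The differences between families were not tested.

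**Figure D5:**
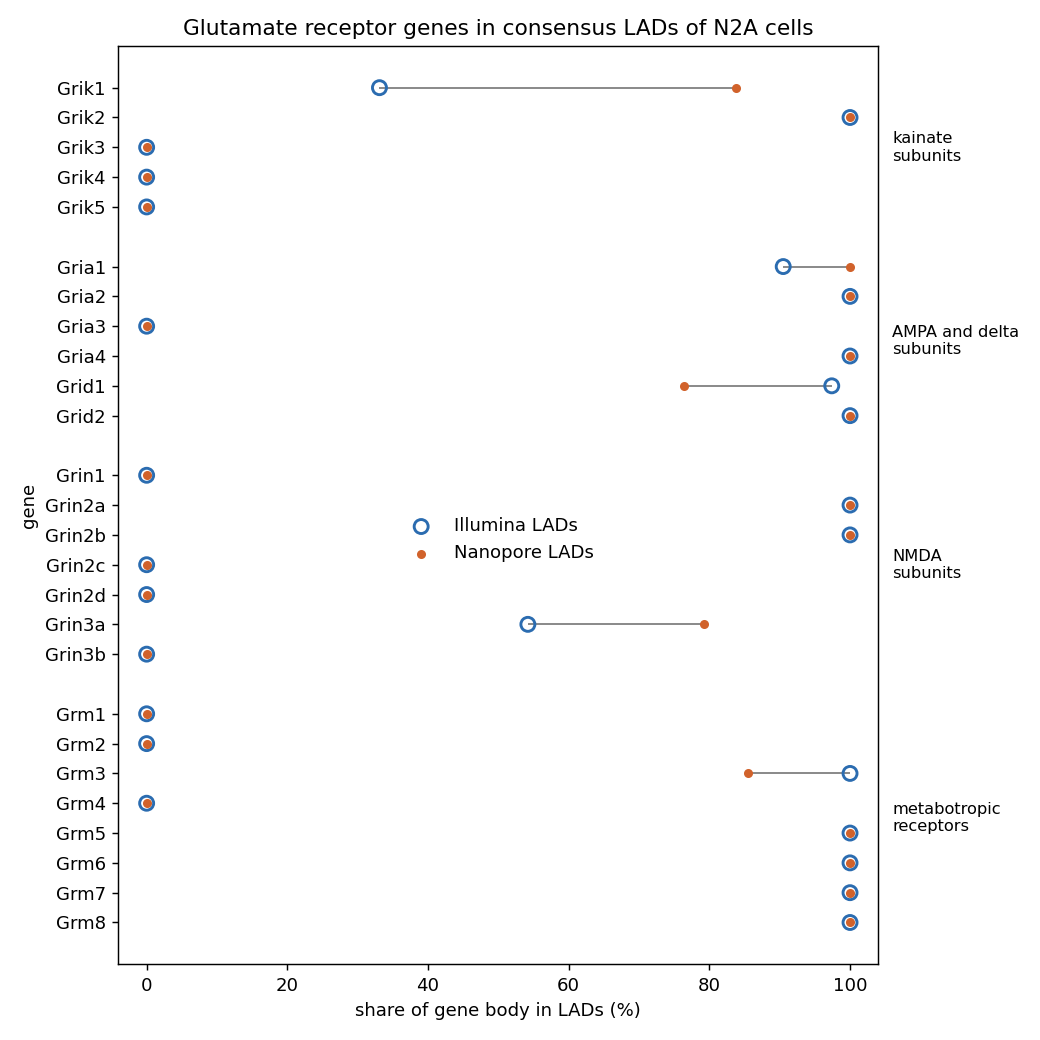
Share of gene body in Nanopore LADs (orange points) and Illumina LADs (blue circles) for glutamate receptor genes (horizontal axis, percent), grouped by family, with a line joining the 2 values of a gene. Most genes stand at 0% or 100% in both lists, and Grik1 has the longest line, from 33.1% to 83.8%.

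Genes that serve kainate receptors were placed next. Of 14 auxiliary subunits and binding partners, 1 had its midpoint in LADs of both lists, against 24.7% of all protein-coding genes, and 11 had no base in either, against 68.8%. The difference was not tested. The median length of the 14 genes was 53.3 kb. Of protein-coding genes of 20 to under 100 kb, 21.5% had their midpoint in Nanopore LADs and 17.8% in Illumina LADs. The gene inside was Neto1, on chromosome 18 from 86394815 to 86506721 and wholly inside LADs of both. Its relative Neto2, the other auxiliary subunit that slows receptor gating, was outside, 19 kb from a Nanopore LAD and 379 kb from an Illumina LAD. The C1q-like genes C1ql2 and C1ql3, whose products bring kainate receptors to mossy fibre synapses, were outside in both lists. Grip1, a scaffold gene of 634 kb, was inside to 23.1% and 20%, and Dlg3 to 36.1% by Nanopore with no base by Illumina. Dlg1, Dlg4, Pick1, Grip2, Klhl17, Klhl24, Cask and Pacsin1 had no base in a LAD of either list. Cask, at 13.2 kb, and Klhl24, at 17.6 kb, lay less than 1 step of the 20 kb grid from a LAD in both lists. Neto2 did so by Nanopore.

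Genes for enzymes that modify kainate receptor transcripts or subunits were placed too. Adarb2, a brain relative of the RNA editing enzymes with no known editing activity, lay in LADs of both lists by midpoint, at 94.9% in each. Adarb1, which encodes the enzyme that edits the pore codon of Grik1 and Grik2 transcripts, was 1182 kb from a Nanopore LAD and 1202 kb from an Illumina LAD. Adar, Pias3 and Senp1 were outside too. Of 7 genes for glutamate uptake and vesicle loading, 5 lay in LADs of both lists by midpoint, against 24.7% of all protein-coding genes, a difference that was not tested: the transporter genes Slc1a1, Slc1a2, Slc1a3 and Slc1a6 and the vesicular transporter gene Slc17a6. Slc17a7 and Slc17a8 were outside. The median length of the 7 genes was 49.3 kb, and for protein-coding genes of 20 to under 100 kb the shares were 21.5% by Nanopore and 17.8% by Illumina.

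Likeness was measured as the distance between pairs of shares, over these 2 lists only, among genes within 25% of a member's length. Nearest to Grik1 of 337 genes were Hydin (91.2% by Nanopore, 29.1% by Illumina), Cfap54 (72.9% and 33.9%) and Prkcb (78.5% and 43.7%), at 8.43, 10.9 and 11.8 points. None of the 337 matched Grik1 exactly. Intermediate shares leave little room for an exact match, so this does not set Grik1 apart. The other members lie wholly inside or wholly clear of LADs, where every such gene of like length ties by construction. For the other members many genes tied at no distance, 50 with Grik2, 318 with Grik3, 100 with Grik4 and 1446 with Grik5. Nearest in length among them were Ptprm, Mgat4c and Ralyl for Grik2, Rapgef2, Gabra3 and Sash1 for Grik3, Rbfox3, Camk1d and Fars2 for Grik4, and Ift57, Lmln and Ep300 for Grik5.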

How the data were processed

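DamID was made in N2A cells by Nanopore and by Illumina. Per the labels, doxycycline at 2 µg/mL induced the Dam proteins, and 2.5 µg of genomic DNA was dephosphorylated and cut with DpnI for Nanopore-DamID. Builds named in the submitters' processing notes are mm10 and hg38, and tools are bedtools, deepTools, minimap2 and SAMtools, with no roles. The sources used here do not give the caller or its thresholds. The authors deposited consensus LADs as interval positions without score or sample; the human CTCF intervals were not used. With positions only, depth and its precision are unknown.

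Genes came from RefSeq (GRCm38.p6, 49997 rows). The 340 genes listed below 3 Mb were left out as unplaced. Base overlap, midpoints, ends and distances were computed with Python 3.11.15, numpy 2.4.6 and pandas 2.3.3 and checked on simulated intervals. Background counts of genes use protein-coding genes, and those of promoters use promoter windows. Strand and starts came from the RefSeq promoter table, and figures from matplotlib 3.10.9. Members and lists were chosen with earlier results of these data known. Named genes are the members, all genes of the lists, neighbours or genes overlapping members, and the 3 genes most like each in shares within 25% of its length; genes of the stretch beside Grik1 and the Krtap count were added after values were seen. A few listed or neighbouring genes go unreported here. Alternatives filtered or merged LADs, moved borders, widened genes and changed the placing rule.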

Additional observations from a re-analysis of the deposited data

How the results depend on the processing

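The alternatives could bear on Grik1 only: the other members lie at least 750 kb from any border, so Grik2 at 100% and Grik3, Grik4 and Grik5 at 0% could not move. Of 15 alternative values for Grik1, 13 moved by no more than 1 grid step and 2 moved further. Most of the 13 were fixed by construction and are no sign of stability. Leaving out LADs narrower than 100 kb, or merging gaps of 100 kb or less, could not change Grik1. Its LADs measured 1.8 and 1.6 Mb, with wider gaps beside them. Moving borders by 20 kb shifts each share by exactly 1 grid step. Only widening the gene could move a value further. Moving all borders by 20 kb gave Grik1 78.7 to 88.8% by Nanopore and 28.1 to 38.2% by Illumina; the difference of 50.6 points was then fixed by construction, since 1 border of each list lies inside the gene and both moved alike. With the gene body widened by 50 kb on each side, Grik1 fell to 76.9% by Nanopore, and its difference to 40.4 points. Counting any base put 2 members in Illumina LADs, and asking for all bases left 1 in Nanopore LADs, Grik1 being the gene that moved. For all protein-coding genes these rules gave 30.4% and 26.8% by Nanopore and 26.6% and 23.5% by Illumina, and genes of at least 100 kb gave 41.3% and 36%. No paired analysis was possible because the lists carry no samples. The lists do not show how LAD calls vary between samples.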
